A study of Sus scrofa with 12 samples.

Results

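Antibody is made in the endometrium by plasma cells and carried into the uterine lumen by the epithelium, and 8 genes of that path were followed here in sow endometrium: JCHAIN, PIGR, MZB1, CD79A, CD79B, MS4A1, POU2AF1 and TNFRSF17. They were selected by gene name, with no measured value in the rule, and all 8 were found among the 20674 genes of the count table. After the filter on low counts 15351 genes were tested, the 8 among them. RNA was sequenced from 12 endometrial samples, 3 in each of 4 diets that differed in crude fiber and in N-carbamylglutamate (NCG), a stable analog of N-acetylglutamate, which is the activator of the enzyme that starts the urea cycle. The sows were Landrace × Yorkshire crosses fed through pregnancy for 114 days. The L − N group received 3.73% crude fiber without NCG and was the basal control, L + N received 3.73% crude fiber with 0.05% NCG, H − N received 7.46% crude fiber without NCG, and H + N received 7.46% crude fiber with 0.05% NCG. High fiber (HF) below means both 7.46% groups against both 3.73% groups (LF), and the interaction is the NCG difference at 7.46% fiber minus that at 3.73%.

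B cells carry the receptor for antigen on their surface, with CD79A and CD79B as its signalling chains and MS4A1 (CD20) beside it. When a B cell becomes a plasma cell it turns its secretory apparatus to antibody, helped by MZB1, a chaperone of the endoplasmic reticulum, and joins IgA and IgM into polymers with the J chain, the product of JCHAIN. PIGR, the polymeric immunoglobulin receptor, is made by epithelial cells, binds J chain-containing antibody on their basal side and releases it into the lumen, so its transcript comes from a different cell than the other 7. POU2AF1 (OBF-1) is a coactivator of immunoglobulin gene transcription, and TNFRSF17 (BCMA) is a plasma cell receptor for the survival ligands TNFSF13B (BAFF) and TNFSF13 (APRIL).

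The libraries held 14369781 to 19309724 counted reads. Of 10 epithelial markers looked for, 9 were found in the count table. These 9 and all 11 stromal markers looked for were read in every library. The L − N libraries were not alike: the summed level of 10 macrophage markers was 1383 CPM (counts scaled to library size) in L − N replicate 1, 3475 in replicate 2 and 3590 in replicate 3, while the other 9 libraries lay between 713 and 1648. For these markers replicate 1 was thus within the range of those 9, and replicates 2 and 3 were above it. For other markers replicate 1 stood apart. Its summed smooth muscle level was 5197 CPM, against 797 to 2001 CPM in all other libraries. Its blood marker sum, 754 CPM, was the highest of the 12 libraries, and its T and NK cell sum, 75.5 CPM, the lowest. The 8 genes in H + N against L − N, and the listed genes called against L − N, are also given without L − N replicate 1. That fit keeps replicates 2 and 3, and the calls without each of these are given at the end. Library sizes were scaled by trimmed mean of M-values (TMM) for CPM and for edgeR, unless another scaling is named, and DESeq2 used its own size factors. Levels of different genes are set side by side only as FPKM, which is divided by gene length and has no TMM scaling.

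Per length, JCHAIN was far above the other 7 genes. Its level ran from 79.1 to 547 FPKM over the 12 libraries, with a mean of 238 FPKM that ranked 208 among all genes of the table. PIGR followed at 5.84 to 38.0 FPKM (mean 19.3), below JCHAIN in 12 of 12 libraries and with no overlap of the ranges. MZB1 had a mean of 5.40 FPKM and CD79A of 4.004 FPKM, and neither was steadily the higher, since MZB1 exceeded CD79A in 6 of 12 libraries. CD79B had a mean of 1.88 FPKM, TNFRSF17 of 1.72 FPKM and POU2AF1 of 1.53 FPKM, and these neighbours changed places between libraries: CD79B was above TNFRSF17 in 8 and TNFRSF17 above POU2AF1 in 9. MS4A1 was the lowest at 0.0253 to 0.849 FPKM (mean 0.376), below POU2AF1 in 12 of 12 libraries. Within a library JCHAIN was 22.6 to 95.6 times MZB1 per length, and 3.50 to 49.0 times PIGR.

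JCHAIN differed more between libraries of one diet than between diets. The gene (Gene ID 100625252, Sscrofa11.1 chromosome 8, 67439405 to 67448628, minus strand) stood at 782, 519 and 195 CPM in L − N replicates 1, 2 and 3. It stood at 543, 225 and 145 CPM in L + N, at 108, 172 and 537 CPM in H − N, and at 128, 310 and 424 CPM in H + N. All 4 groups overlapped, and H − N held both the lowest library of the series (replicate 1) and one of the 3 highest (replicate 3). The mean ± SD of JCHAIN (n = 3 per group) was 499 ± 294 CPM for L − N and 304 ± 210 CPM for L + N. For H − N it was 272 ± 232 CPM, and for H + N 287 ± 150 CPM.

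MZB1 followed much the same order of libraries over an 11.9-fold range. The gene (Gene ID 100522482, chromosome 2, 141277541 to 141279652, minus strand) measured 8.98, 8.09 and 1.95 CPM in L − N and 7.86, 1.40 and 2.68 CPM in L + N. In H − N it measured 1.55, 1.32 and 14.1 CPM, the last being its highest value in the series, and in H + N 1.19, 3.31 and 2.94 CPM. The 4 libraries highest in MZB1 (H − N replicate 3, L − N replicates 1 and 2, L + N replicate 1) belonged to 3 of the 4 diets, and they were also the 4 highest for JCHAIN. MZB1 overlaps its neighbour SLC23A1 by 15 bases on the same strand, and SLC23A1 itself had 61 to 188 reads.

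The B cell receptor chains moved together from library to library. CD79A (Gene ID 100190992, chromosome 6, 49996116 to 49999294, minus strand) measured 4.71, 2.19 and 0.672 CPM in L − N replicates 1, 2 and 3, against 3.54, 1.05 and 3.01 with NCG added. At the higher fiber level CD79A measured 1.71, 1.60 and 5.45 CPM without NCG and 1.65, 3.37 and 3.37 CPM with it. CD79B (Gene ID 100511898, chromosome 12, 15052966 to 15056441, plus strand) measured 4.78, 2.70 and 1.01 CPM in L − N replicates 1, 2 and 3, against 3.49, 2.04 and 3.14 with NCG added. At the higher fiber level CD79B measured 3.16, 2.57 and 4.41 CPM without NCG and 1.91, 2.93 and 2.82 CPM with it. For both genes L − N replicate 3 was the lowest of the 12 libraries, and L − N replicate 1 and H − N replicate 3 were the highest pair. CD79A was above CD79B per length in every library, by 1.19 to 2.86 times (median 2.11), a 2.40-fold range against the 8.11-fold range of CD79A and the 4.74-fold range of CD79B in CPM.

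MS4A1, the B cell surface protein CD20, sat near the limit of detection. The gene (Gene ID 100627952, chromosome 2, 11216238 to 11229060, minus strand) had 1 to 39 reads per library. Its reads were 13, 34 and 13 for L − N replicates 1, 2 and 3, and 39, 1 and 10 for L + N. They were 3, 7 and 17 for H − N and 3, 18 and 23 for H + N, so that 3 libraries held no more than 3 reads. At this depth no order of the groups was detectable for MS4A1. It overlaps MS4A4A, a related gene on the opposite strand, by 2915 bases, and the counting strand is not given in the sources used here, so reads of the pair cannot be told apart with certainty.

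The coactivator POU2AF1 kept to the pattern of JCHAIN and MZB1, and the receptor TNFRSF17 did not. POU2AF1 (Gene ID 100512063, chromosome 9, 39121422 to 39144636, minus strand) measured 3.25, 1.63 and 0.806 CPM in L − N replicates 1, 2 and 3, against 2.77, 0.699 and 0.981 with NCG added. At the higher fiber level POU2AF1 measured 1.45, 1.04 and 4.0 CPM without NCG and 0.527, 1.30 and 1.35 CPM with it. TNFRSF17 (Gene ID 100517087, chromosome 3, 31137672 to 31141862, minus strand) measured 1.40, 2.07 and 1.75 CPM in L − N replicates 1, 2 and 3, against 1.46, 1.86 and 1.18 with NCG added. At the higher fiber level TNFRSF17 measured 1.76, 1.04 and 1.66 CPM without NCG and 0.593, 2.06 and 1.53 CPM with it. TNFRSF17 had the narrowest range of the 8 genes, 3.49-fold, on 9 to 38 reads, and its highest libraries, L − N replicate 2 and H + N replicate 2, were not the highest for POU2AF1.

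**Figure D1:**
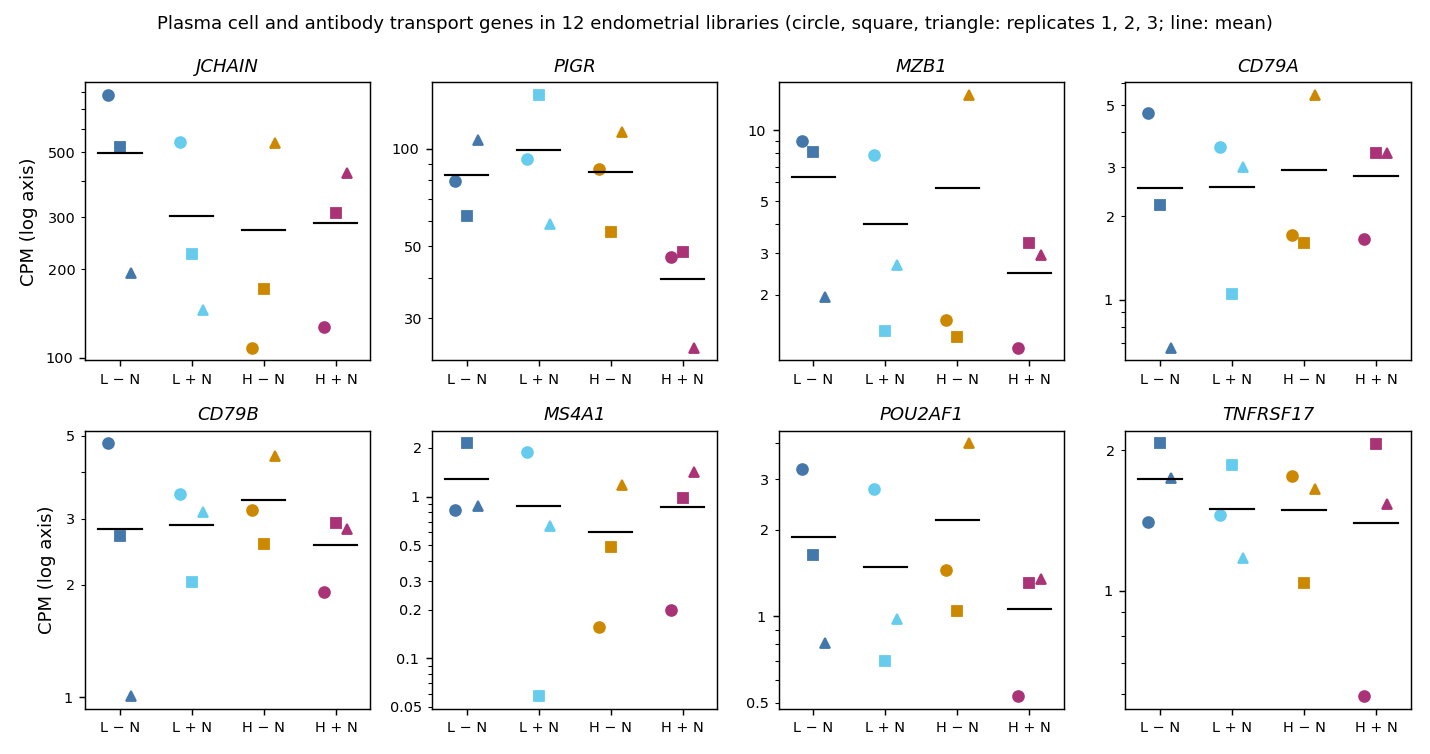
CPM of each of the 8 genes on a log axis, by diet group; circles, squares and triangles are replicates 1, 2 and 3 and the line is the group mean (n = 3). The groups overlap for 7 genes, while for PIGR the 3 H + N libraries, at 24.3 to 48.0 CPM, lie below the other 9, at 55.4 to 146 CPM.

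The spread between libraries of a diet was large for 5 of the 8 genes. The biological coefficient of variation fitted by edgeR was 0.784 for MS4A1, 0.759 for MZB1, 0.586 for CD79A, 0.577 for JCHAIN and 0.575 for POU2AF1, each above the 95th percentile of all genes tested, whose median was 0.206. CD79B stood at 0.402, TNFRSF17 at 0.342 and PIGR at 0.321. The share of the variation in log2 CPM that lay between diet groups was 57.4% for PIGR and 3.91% to 16.4% for the other 7, against a median of 42.8% and a lower quartile of 25.6% over all genes. PIGR was thus the one gene of the 8 with a larger share between groups than the median gene.

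The genes of the antibody-making cells varied together across libraries. Log2 CPM was correlated over the 12 libraries for all 28 pairs, with 100000 permutations per pair, two-sided, and Benjamini-Hochberg adjustment over the 28. CD79A and CD79B gave Pearson's r = 0.903 (adjusted permutation p = 0.00084) and Spearman's rho = 0.874 (adjusted permutation p = 0.00728). MZB1 and POU2AF1 gave r = 0.901 (adjusted permutation p = 0.00126) and rho = 0.860 (adjusted permutation p = 0.00728). JCHAIN and MZB1 gave r = 0.878 (adjusted permutation p = 0.00327) and rho = 0.846 (adjusted permutation p = 0.00728). Without the 2 libraries farthest from the median of the first gene, r was 0.814, 0.806 and 0.866 for these 3 pairs. After each library was centred on its diet group r was 0.946, 0.942 and 0.890, so the pairs moved together within diets.

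In all, 10 of the 28 pairs passed an adjusted permutation p of 0.05 for Pearson's r, and each of the 10 joined genes of B or plasma cells. Beside the 3 pairs above, the other 7 of the 10 were JCHAIN with POU2AF1 (r = 0.779) and with MS4A1 (r = 0.714), MZB1 with CD79A (r = 0.755), CD79B (r = 0.652) and MS4A1 (r = 0.746), and POU2AF1 with CD79A (r = 0.783) and CD79B (r = 0.792). The relations of MZB1 with CD79A and CD79B leaned on H − N replicate 3 and L − N replicate 1, without which r was 0.590 and 0.429. TNFRSF17 gave r between 0.046 and 0.396 with the other genes, and PIGR between -0.280 and 0.325, none past the threshold. MS4A1 and TNFRSF17 gave r = 0.305 with all 12 libraries and 0.842 without L + N replicate 2 and H − N replicate 1, where MS4A1 had 1 and 3 reads. In whole tissue, fewer cells of a type and less RNA per cell cannot be told apart, so these relations are of tissue levels.

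**Figure D2:**
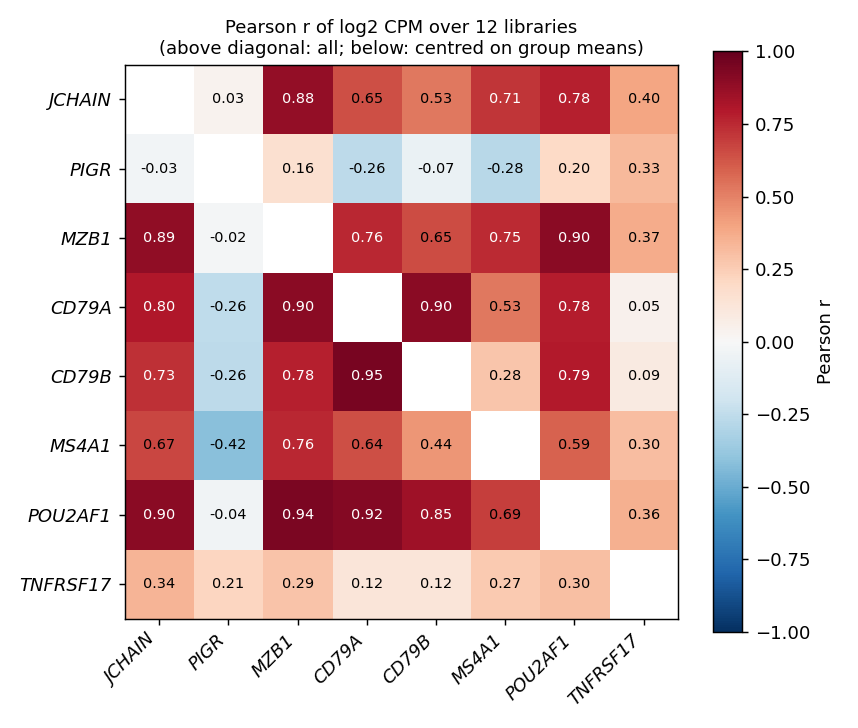
Pearson's r of log2 CPM over 12 libraries for each pair of the 8 genes, as measured above the diagonal and after centring on diet group means below it; colour runs from -1 (blue) to 1 (red). JCHAIN, MZB1, CD79A, CD79B and POU2AF1 form a block of positive values from 0.53 to 0.90 as measured, and the row and column of PIGR stay between -0.42 and 0.33.

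The diets were compared to ask whether fiber and NCG change the expression of these genes. With edgeR's quasi-likelihood test and Benjamini-Hochberg adjustment over all 15351 genes, a gene was called when its adjusted p was under 0.05 and its log2 fold change beyond 1 in either direction. None of the 8 genes was called in any of the 8 comparisons (edgeR). Over all genes the same rule called 3.99% for L + N against L − N, 2.91% for H − N against L − N, 3.58% for H + N against L − N, 0.0261% for HF against LF and 1.8% for NCG against no NCG. It called 0% for H + N against H − N, for H + N against L + N and for the interaction, where 1331, 719 and 1967 genes had an unadjusted p under 0.05 by edgeR. An unadjusted p under 0.05 among the 8 genes was found for PIGR alone, in 5 of the 8 comparisons. Of all 15351 genes, 4215 had an unadjusted p under 0.05 by edgeR in H + N against L − N and 2994 in HF against LF. Such a p was thus common among all genes there. DESeq2 called 1 of the 8, PIGR in H + N against L − N, and none of them in the other 7 comparisons. Over all 15351 genes DESeq2 called 988 in H + N against L − N and 2 to 913 in the other 7, so 1 call among 8 genes is not particular to them.

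JCHAIN had negative log2 fold changes against L − N in the other 3 groups, none of them past the threshold. They were -0.71 (SE 0.70, adjusted p = 0.544 by edgeR) in L + N, -0.87 (SE 0.71, adjusted p = 0.476 by edgeR) in H − N, and -0.80 (SE 0.70, adjusted p = 0.500 by edgeR) in H + N. The 95% interval for H + N against L − N ran from -2.34 to 0.75, so that a fall to a fold of 0.197 and a rise to a fold of 1.68 both remain within it. Without L − N replicate 1 JCHAIN gave -0.23, -0.39 and -0.31 in the same order, and without H − N replicate 3 its value in H − N was -1.83. Over both fiber levels and both NCG levels, JCHAIN gave -0.48 (95% interval -1.57 to 0.61) for HF against LF and -0.32 (-1.40 to 0.77) for NCG against no NCG.

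MZB1 and POU2AF1 were also below 0 in H + N against L − N and with NCG, and were not called. In H + N against L − N, MZB1 gave -1.35 (95% interval -3.44 to 0.74) and POU2AF1 gave -0.83 (-2.39 to 0.74) on the log2 scale. For NCG against no NCG, MZB1 gave -0.92 (-2.38 to 0.54) and POU2AF1 gave -0.68 (-1.77 to 0.42). Without L − N replicate 1 the POU2AF1 value in H + N against L − N was -0.20, and that of MZB1 was -1.01.

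The log2 fold changes of the B cell receptor chains turned on single libraries. CD79A gave 0.17 (95% interval -0.92 to 1.27) for HF against LF, -0.02 (-1.12 to 1.07) for NCG against no NCG and 0.15 (-1.40 to 1.70) for H + N against L − N. CD79B gave 0.04 (-0.70 to 0.78), -0.18 (-0.93 to 0.56) and -0.14 (-1.20 to 0.91) in the same order. Without L − N replicate 1, where both genes were high, H + N against L − N was 0.96 for CD79A and 0.46 for CD79B. For CD79B and HF against LF, a change of 2-fold in either direction lies outside the interval. For TNFRSF17 the H + N against L − N value was -0.31 (-1.28 to 0.66), and for MS4A1 it was -0.56 (-2.66 to 1.55), beside -0.44 and -0.79 without L − N replicate 1. For TNFRSF17, MS4A1 and CD79A a rise of 1.5-fold or a fall to 0.5 lies within the interval of H + N against L − N.

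Over the 8 genes the log2 fold changes had a median of -0.68 when H + N was set against L − N, and 7 of 8 were below 0, beside a median of 0.02 for all genes tested. For HF against LF the median was -0.29 with 6 of 8 below 0, and for NCG against no NCG it was -0.25 with 7 of 8 below 0. The all-gene medians were 0.02 and -0.03. Most of the 8 genes, though not PIGR or TNFRSF17, moved together with others of the 8 between libraries, so the signs are not all separate observations.

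**Figure D3:**
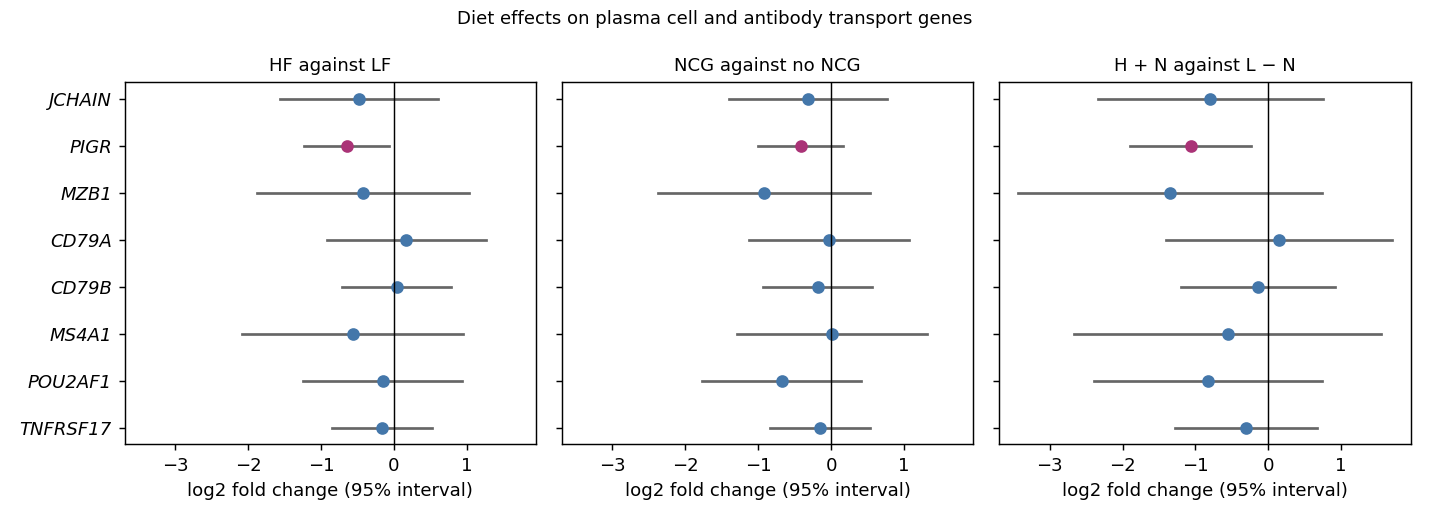
Log2 fold changes of the 8 genes from edgeR with 95% intervals (horizontal lines) for HF against LF, NCG against no NCG and H + N against L − N; PIGR is in purple and the vertical line marks 0. The PIGR interval lies below 0 in the first and last panels (-1.23 to -0.07 and -1.89 to -0.24, before any adjustment over genes), while every interval of the other 7 genes crosses 0.

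PIGR, the receptor that carries polymeric antibody across the epithelium, was lowest in the group given both high fiber and NCG. The gene (Gene ID 397315, chromosome 9, 67553094 to 67574698, minus strand) measured 79.3, 62.0 and 107 CPM in L − N replicates 1, 2 and 3. It measured 93.0, 146 and 58.7 CPM in L + N and 86.5, 55.4 and 113 CPM in H − N. In H + N it measured 46.2, 48.0 and 24.3 CPM, and these 3 libraries were below all 9 others. Of all genes tested, 0.261% had the H + N libraries below every other library. The mean ± SD of PIGR (n = 3 per group) was 39.5 ± 13.2 CPM for H + N, beside 82.7 ± 22.6 CPM for L − N, 99.4 ± 44.3 CPM for L + N and 84.8 ± 28.6 CPM for H − N.

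The PIGR difference did not pass the adjusted threshold by edgeR. On the log2 scale H + N differed by -1.06 against L − N (SE 0.38, adjusted p = 0.0960 by edgeR), -1.10 against H − N (SE 0.38, adjusted p = 0.477 by edgeR) and -1.33 against L + N (SE 0.38, adjusted p = 0.910 by edgeR). The unadjusted p-values of these 3 by edgeR were 0.0160, 0.0134 and 0.00461. As a fold, H + N stood at 0.478 of L − N (95% interval 0.270 to 0.847). DESeq2 put the change against L − N at -1.08 with an adjusted p of 0.0339, past the threshold, and left the other 2 at 0.181 and 0.461.

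Fiber or NCG alone did not move PIGR by an amount that could be told from the spread between libraries. L + N against L − N gave 0.27 (95% interval -0.55 to 1.08) and H − N against L − N gave 0.04 (-0.78 to 0.85) on the log2 scale. The interaction, which tests whether the NCG difference depended on fiber, was -1.37 (SE 0.53, unadjusted p = 0.0245, adjusted p = 0.324 by edgeR), short of the adjusted threshold. Leaving out 1 library at a time kept the H + N against L − N value between -1.24 and -0.81, and the highest of these was the fit without H + N replicate 3, the library lowest in PIGR. Without L − N replicate 1 it was -1.09 (adjusted p = 0.116 by edgeR).

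The epithelial markers were lower in H + N than in H − N and L + N in sum, and overlapped L − N. Their summed level, over EPCAM, CDH1, MUC1, FOXA2 and 5 other markers found in the table, was 1263 to 1410 CPM in H + N, below the 1601 to 2400 CPM of H − N and the 1502 to 1567 CPM of L + N. It overlapped the 1048 to 1535 CPM of L − N. None of the 9 markers was called in any comparison by edgeR or DESeq2. In H + N against H − N all 9 had log2 fold changes below 0, with a median of -0.46, and 4 had an unadjusted p under 0.05 by edgeR. In H + N against L − N, 6 were above 0 and 3 below, with a median of 0.04, and none had an unadjusted p under 0.05 by edgeR. Per 1000 CPM of epithelial markers PIGR stood at 36.6, 34.1 and 18.7 in H + N and at 34.6 to 102 in the other 9 libraries, so that on this scale the groups overlapped. The part of the epithelial share in the PIGR difference was not tested beyond this ratio.

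**Figure D4:**
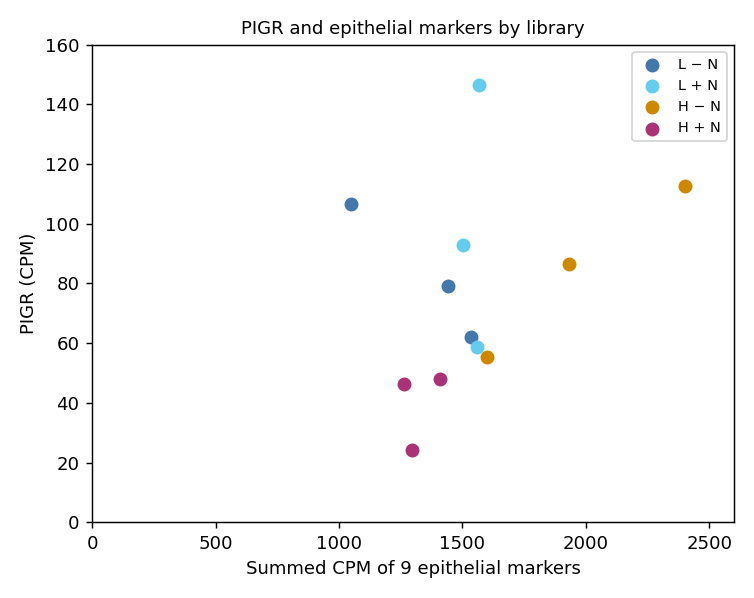
PIGR in CPM against the summed CPM of 9 epithelial markers, 1 point per library, coloured by diet group. The 3 H + N points are lowest on the vertical axis, at 24.3 to 48.0 CPM, at epithelial sums of 1263 to 1410 CPM, which lie within the range of the L − N points.

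Of 20 genes listed as regulators of PIGR transcription (interferon, NF-κB, cytokine receptor and steroid receptor genes), all were tested, and ESR1, PGR and IL4R were among those called in H + N against L − N. ESR1, the estrogen receptor alpha, rose by 1.25 (adjusted p = 0.0161 by edgeR), and PGR, the progesterone receptor, rose by 1.17 (adjusted p = 0.0500 by edgeR, just under the threshold). IL4R, the receptor chain for interleukin 4, fell by 1.05 (adjusted p = 0.0288 by edgeR). The median over the list was -0.24 for H + N against L − N. ESR1 and PGR are also markers of the stroma: of 11 stromal markers ESR1, PGR and HOXA10 rose and VIM fell in H + N against L − N, and the summed stromal level was 29568 to 50749 CPM in H + N and 23687 to 28376 CPM in L − N. Macrophage markers were lower in the same comparison, with 4 of 10 called and all 10 below 0 (median -1.04), and IL4R, at 53.2, 74.9 and 65.7 CPM in L − N replicates 1, 2 and 3, was lowest there in the library lowest in these markers. The part of stroma and macrophages in these calls was not tested. Without L − N replicate 1 the values were 1.37 for ESR1, 1.03 for PGR and -1.17 for IL4R, and PGR was no longer called (adjusted p = 0.0914 by edgeR). Of 12 fits that each left out 1 library, ESR1 remained called in 10, IL4R in 8 and PGR in 1.

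Of 16 other genes tested that carry or bind antibody, edgeR called 1, in 1 comparison. DESeq2 called FCGR2B, FCGR3A and FCER1G in H − N against L − N and LTF in the interaction. FCGR3A, an Fc receptor of macrophages and natural killer cells, fell by 1.43 in H − N against L − N (adjusted p = 0.0474 by edgeR), and was called in 1 of 12 fits that left out a library, the one without L − N replicate 1 (-1.79). Its level was 119, 340 and 380 CPM in L − N and 69.0 to 128 CPM in H − N, so the groups overlapped through L − N replicate 1, the library low in macrophage markers. FCGRT, the neonatal Fc receptor that carries IgG, was 281 ± 43.7 CPM (SD, n = 3) in L − N and 199 ± 6.67 CPM (SD, n = 3) in H − N. Its log2 fold change of -0.49 (adjusted p = 0.0491 by edgeR) was under the fold threshold.

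Genes of B cell identity and receptor signalling other than the 8 were mostly below 0 against L − N in each of the other 3 groups. Of 25 listed, 22 were tested, and in H − N against L − N 20 of the 22 had log2 fold changes below 0, with a median of -0.64 beside 0.03 over all genes. In L + N against L − N it was 21 of 22 (median -0.39), and in H + N against L − N 17 of 22 (median -0.41); the 3 comparisons share the L − N libraries. CD22, an inhibitory receptor of B cells, fell by 1.94 (adjusted p = 0.0430 by edgeR) and BTK, a kinase of B cell receptor signalling also made by myeloid cells, fell by 1.40 (adjusted p = 0.0353 by edgeR), and none of the 22 was called in the other 7 comparisons by edgeR. DESeq2 called 4 in this comparison and CD22 also in H + N against L − N and in HF against LF. CD22 measured 7.13, 24.5 and 22.8 CPM in L − N and 3.68, 6.31 and 4.28 CPM in H − N. BTK measured 18.7, 45.4 and 43.3 CPM in L − N and 15.5, 14.8 and 10.2 CPM in H − N. The L − N libraries high in CD22 and BTK were replicates 2 and 3, the libraries high in macrophage markers, whereas JCHAIN and CD79A were highest in replicate 1. Macrophage markers moved in the same comparison, with 7 of 10 called lower in H − N against L − N and all 10 below 0, and their part in the CD22 and BTK values was not tested. Each of the 2 calls remained in 5 of 12 fits without a library, and without L − N replicate 1 the values were -2.32 for CD22 and -1.71 for BTK. PAX5, a transcription factor that defines B cells, was low and not called: it gave -1.03 (95% interval -2.77 to 0.72) in H − N against L − N, at 0.225 ± 0.154 CPM in H − N (SD, n = 3).

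Plasma cell transcription factors and surface proteins (15 of 18 tested) held 1 call by edgeR. DESeq2 called ITGA4 with NCG and in L + N against L − N, and CXCR4 in H − N against L − N. ITGA4, an integrin chain of leukocytes, rose by 1.24 with NCG (adjusted p = 0.0368 by edgeR), and remained called in 5 of 12 fits without a library. IRF4, PRDM1, XBP1 and SDC1 were not called in any comparison by edgeR or DESeq2. IRF4 measured 19.7, 9.28 and 7.79 CPM in L − N replicates 1, 2 and 3 and 15.4, 9.78 and 9.09 CPM with NCG added. In H − N it measured 9.90, 10.3 and 31.8 CPM and in H + N 4.94, 14.6 and 8.71 CPM, with the 2 highest values in the same libraries as for POU2AF1. PRDM1 was 170 ± 82.4 CPM in L − N and 187 ± 40.2 in H + N, and XBP1 was 325 ± 76.7 and 322 ± 68.5 (SD, n = 3 each). SDC1, the plasma cell surface marker CD138 that epithelium also makes, was 78.2 ± 35.0 CPM in L − N and 68.6 ± 27.3 in H + N. For HF against LF the log2 values of XBP1, PRDM1, IRF4 and SDC1 were 0.29, 0.03, 0.11 and 0.03. The 20 genes of the secretory apparatus (HSPA5, DERL3 and others) held no call by edgeR or DESeq2, with 1 to 5 genes per comparison at an unadjusted p under 0.05 by edgeR and median log2 fold changes of -0.29 in L + N against L − N and -0.06 in H + N against L − N.

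Among ligands and chemokines that draw or feed B and plasma cells, 15 of 18 were tested and edgeR called 3, all in H − N against L − N. DESeq2 called the same 3 there, CCL28 also in L + N against L − N and in the interaction, and IL10 also in H + N against L − N. CCL28, the mucosal chemokine that draws IgA plasma cells through CCR10, rose by 1.70 (SE 0.39, adjusted p = 0.0352 by edgeR). It measured 11.8, 8.59 and 5.44 CPM in L − N and 26.2, 14.1 and 43.7 CPM in H − N, with no overlap. In L + N it measured 21.3, 24.1 and 15.0 CPM and in H + N 20.2, 16.5 and 15.3 CPM, so every library of the other 3 groups was above every L − N library. The share of all genes that separate from L − N in this way was not counted, so the separation cannot be called particular to CCL28. Against L − N, CCL28 gave 1.23 in L + N (adjusted p = 0.0678 by edgeR) and 1.01 in H + N (adjusted p = 0.118 by edgeR), neither past the threshold by edgeR. The CCL28 receptor gene CCR10 was low (0.927 ± 0.131 CPM in L − N, 0.554 ± 0.140 in H + N; SD, n = 3).

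TGFB1, the switch factor for IgA, fell by 1.11 (adjusted p = 0.0279 by edgeR), and IL10, a cytokine that helps B cells to become plasma cells, fell by 1.47 (adjusted p = 0.0425 by edgeR). TGFB1 measured 98.6, 208 and 184 CPM in L − N and 82.5, 76.4 and 68.1 CPM in H − N. IL10 measured 2.74, 5.46 and 6.72 CPM in L − N and 1.76, 1.32 and 2.28 CPM in H − N. Both genes were lowest in L − N replicate 1 within their group, as the macrophage markers were. CCL28 remained called in 5, TGFB1 in 7 and IL10 in 3 of 12 fits without a library. Without L − N replicate 1 the values were 1.99 for CCL28, -1.37 for TGFB1 and -1.76 for IL10. The survival ligands and homing factors were not called: in H + N against L − N TNFSF13B gave -0.08, TNFSF13 -0.62, IL6 -0.34 and CXCL12 0.72 on the log2 scale, with adjusted p-values of 0.921, 0.0921, 0.725 and 0.373 by edgeR.

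Immunoglobulin chain genes could hardly be followed. A search of names and descriptions returned 4 genes, of which RBPJ, RBPJL and IGHMBP2 encode DNA-binding proteins and not chains. The remaining one, LOC100523213, an immunoglobulin lambda-like polypeptide on chromosome 14 (49951542 to 49960517), had 0 to 29 reads and failed the filter. The antibody transcripts themselves were therefore not analysed here.

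Other lymphoid and myeloid markers gave a mixed picture beside these genes. None of 13 T and NK cell markers was called in any comparison by edgeR, with 0 to 2 per comparison at an unadjusted p under 0.05, and DESeq2 called 2 in H − N against L − N. Their summed level was 75.5 to 278 CPM for L − N, 119 to 212 for L + N, 127 to 155 for H − N and 150 to 239 for H + N. Of 5 dendritic cell markers tested none was called by edgeR (at most 1 at an unadjusted p under 0.05, and at most 1 called by DESeq2), with sums of 7.89 to 33.0 CPM in L − N and 11.6 to 15.1 CPM in H + N. Neutrophil markers (5 tested, none called by edgeR, up to 3 at an unadjusted p under 0.05 and up to 3 called by DESeq2) were very uneven, with sums of 4.73 to 16.7 CPM in H + N and 4.92 to 172 CPM in H − N. MPO, also on that list, had 0 to 3 reads. Dividing cells stood apart, as 6 of 6 markers were called higher in L + N and in H + N against L − N and with NCG against no NCG. Smooth muscle markers (TAGLN and ACTA2 lower), PECAM1 of the endothelium and AHSP of red cells were called in L + N against L − N. Smooth muscle sums were 1614 to 5197 CPM in L − N, the highest in replicate 1, and 1002 to 1228 CPM in L + N. The part of any of these in the 8 genes' values was not tested.

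For each of the 8 genes the 3 named genes with the highest Pearson's r of log2 CPM over the 12 libraries were taken, as a description. The search covered the genes tested outside the 8, so closest here means closest outside the 8. Pairs among the 8 could be closer, as CD79A was with CD79B (r = 0.903) and MZB1 with POU2AF1 (r = 0.901). JCHAIN was closest to RASGRP2 (r = 0.913), an exchange factor for Rap proteins, then MSC (0.847) and RGMA (0.829). MZB1 was closest to BHLHA15 (0.912), a transcription factor of secretory cells, then CPPED1 (0.907) and GHDC (0.879). POU2AF1 was also closest to BHLHA15 (0.947), then PLEKHG3 (0.906) and IRF4 (0.891). CD79A was closest to PLEKHG3 (0.877), FAM160A2 (0.859) and RHBDF1 (0.842), and CD79B to TNK1 (0.896), LSR (0.881) and GPER1 (0.870). MS4A1 was closest to DPP9 (0.848), ORAI1 (0.839) and GJA4 (0.836), on counts as low as 1. TNFRSF17 was closest to CCR7 (0.836), a homing receptor of lymphocytes and dendritic cells, then HMGB3 (0.799) and AREL1 (0.798). PIGR was closest to CASP6 (0.878), an executioner caspase, CP (0.865), the copper-carrying ferroxidase ceruloplasmin, and TRIB1 (0.848), and none of its 3 was shared with another of the 8 genes.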

How the data were processed

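Endometrial RNA was enriched for poly(A), made into strand-specific libraries and sequenced in paired ends. Per the labels, fastp 0.22.0, HISAT2 2.1.0 and HTSeq 0.9.1 were used with Sscrofa11.1, and their options and the counting strand are not given in the sources used here. The authors deposited raw counts per gene and, beside them, FPKM, which were recomputed from counts and gene lengths to within 1.91e-05 percent. Groups and replicate numbers were read from the sample titles, and each table column was matched to a title. Nothing used here says how many animals a sample stands for, so p-values measure the spread between these samples.

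Counts were tested with edgeR 4.0.16 (R 4.3.3) by the quasi-likelihood method after TMM scaling and the filterByExpr filter, with 1 mean per group over all 12 libraries and 8 residual degrees of freedom. CPM uses TMM library sizes, and log2 CPM a prior count of 2. The scripts were tested on simulated data. Alternatives were DESeq2 1.42.0 with its own adjustment, relative log expression (RLE) size factors, no filter, a replicate block, the 2 compared groups alone, and each library left out. Precision is limited by 3 libraries per group, and for MS4A1 and TNFRSF17 also by counts under 40. Replicate libraries differed beyond counting noise (chi-square per gene 23.3 to 99.8). The highest value was between L − N replicates 1 and 2, and the lowest between L − N replicates 2 and 3.

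The 8 genes, the lists of B cell, plasma cell, secretory, ligand, antibody transport, PIGR regulator and cell type marker genes, and the tests were chosen with earlier results of these data known. Genes named were the 8, up to 4 called genes per pathway list, 13 preset genes of B cell or antibody biology, immunoglobulin chain genes and overlapping genes. The 3 most correlated genes outside the 8 were also named for each of the 8. The marker genes named beside these were chosen after their values were seen. Results for some listed genes are not reported here.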

Additional observations from a re-analysis of the deposited data

How the results depend on the processing

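None of the 8 genes was called in 132 of 133 recomputed counts over the 8 comparisons. The exception was DESeq2 in H + N against L − N, which called 1, PIGR. The count says little about these genes. In H + N against H − N and H + N against L + N every edgeR fit called 0 of all genes tested, and DESeq2 called 25 and 2. The main fits called at most 3.99% of all genes in any comparison, so 0 among 8 genes is not particular to them. The PIGR log2 fold change stayed negative in H + N against L − N under each alternative run, with an adjusted p of 0.141 by edgeR with a replicate block and of 0.0837 to 0.280 with 1 library left out. The sign of 18 of the 31 fold changes recomputed of the 8 genes turned under an alternative, all of them uncalled. The log2 fold change of MS4A1 with NCG was -0.000257 with RLE size factors and -0.0184 with DESeq2, beside 0.01. Leaving out 1 library at a time gave, for HF against LF, -1.41 to 0.037 for MZB1, -0.23 to 0.58 for CD79A, -0.16 to 0.34 for CD79B, -1.02 to 0.080 for MS4A1, -0.54 to 0.24 for POU2AF1 and -0.37 to 0.0029 for TNFRSF17. For NCG against no NCG it gave -0.67 to 0.16 for JCHAIN, -1.40 to 0.062 for MZB1, -0.25 to 0.38 for CD79A, -0.38 to 0.12 for CD79B, -0.65 to 0.47 for MS4A1 and -0.34 to 0.032 for TNFRSF17. For H + N against L − N it gave -0.30 to 0.96 for CD79A, -0.54 to 0.46 for CD79B, -1.09 to 0.027 for MS4A1 and -0.71 to 0.035 for TNFRSF17. For PIGR it gave -0.12 to 0.55 in L + N and -0.22 to 0.27 in H − N, both against L − N. The replicate block called none of the 8 genes, and moved the calls over all genes from 446 to 254 in H − N against L − N and from 4 to 1 in HF against LF. With it CD22 (adjusted p = 0.0711), BTK (0.0597), IL10 (0.0780), CCL28 (0.0640), TGFB1 (0.0553), FCGR3A (0.0799) and ITGA4 (0.0522) were no longer called by edgeR. The numbers do not pair the libraries: residuals of same-numbered libraries correlated between -0.32 and 0.28, with 3 of 18 over 0.1, and 3 of 12 libraries were closest to a library of their own number. With only the 2 groups compared, edgeR called 3 genes for H − N against L − N and 87 for H + N against L − N, beside 446 and 549, and none of the listed genes named above. DESeq2 called 913 and 988. For HF against LF it called 290 and for the interaction 184, beside 4 and 0. Over all genes, edgeR without L − N replicate 1, 2 or 3 called 1120, 122 and 6 for H − N against L − N, beside 446. For H + N against L − N the calls were 948, 342 and 4, beside 549. CD22, BTK, IL10, CCL28, TGFB1 and FCGR3A in H − N against L − N were lost both without replicate 2 and without replicate 3 of L − N. In H + N against L − N the same held for IL4R and PGR.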
